A study of Mus musculus with 12 samples.

Results

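The transition of mouse embryonic stem cells (ESCs) into epiblast-like cells (EpiLCs) was measured in the control line of a CRISPR interference study, named E14-dox-CRISPRi Neg. Members were all libraries whose sample title gives the Neg genotype, that is 3 libraries of ESCs (day 0) and 3 libraries of EpiLCs at day 2, or 6 of the 12 libraries of the series. The parental E14 line is a male ESC line of 129/Ola origin. The line carries a doxycycline-inducible CRISPR interference repressor, from a single picked clone, and a piggyBac insert with scramble guide RNAs in a drug-selected population. The ESC and EpiLC libraries share all of these elements. The study's methods also describe all lines as kept under hypoxic conditions, with puromycin, blasticidin and hygromycin selection throughout the RNA experiment. ESCs were kept on fibronectin in N2B27 medium with 2 inhibitors, CT99021 against GSK3 and PD against MEK, together with the cytokine LIF. For EpiLCs the same line was moved for 2 days into N2B27 with FGF2, activin A and XAV939, a tankyrase inhibitor that stabilises AXIN and so holds back canonical WNT signalling. The other line, 3xKD, carries guide RNAs that lower Pcx, Me1 and Me2, and its 3 ESC and 3 EpiLC libraries entered the filter on low counts and the shared fit as well as a test of whether a change differed between lines.

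The labels do not name doxycycline, and a figure legend of the study describes the cells as treated with it. One label, the cell type, reads ESC in each of the 6 Neg libraries, but their titles and library names hold both states, and groups were made from the titles. The methods describe replicates as biological for the experiments in general, but the labels do not tie the 3 libraries of a group to separate cultures, so p-values measure the spread between these libraries.

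By way of background, ESCs in these inhibitors are held in naive pluripotency, the state of the preimplantation epiblast. A network of factors that includes ESRRB, KLF4, TFCP2L1 and NANOG sustains it. STAT3 downstream of LIF feeds that network, inhibition of GSK3 relieves repression by TCF7L1, and inhibition of MEK blocks ERK signalling driven by autocrine FGF4. Release from the inhibitors, with FGF2 and activin supplied, moves cells towards formative pluripotency, the state of the epiblast just after implantation. Formative cells gain OTX2, POU3F1 and the de novo DNA methyltransferases, and become competent for lineage and germ cell induction.

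Of 57180 annotated genes, 25446 had at least 10 counts over the 12 libraries and were tested. Library totals lay between 11221023 and 19652197 estimated counts in ESCs and between 14967515 and 16896809 in EpiLCs. The first principal component of the 6 Neg libraries held 85.6% of the variance and separated the states, and the second held 4.35%. A gene was called when the adjusted p was under 0.01 and the absolute log2 fold change, EpiLCs over ESCs, was above 0.58. This rule called 2490 genes higher in EpiLCs (9.79% of those tested) and 2803 lower (11%), with a median log2 fold change over all genes of 0.01. At the adjusted p alone, 17.5% were higher and 18.2% were lower. Among called genes the median absolute log2 fold change was 1.29, and 1515 exceeded 2. These shares are the background against which each group of genes below is read. They cover genes of every level. Calls were more frequent at a mean of at least 1 CPM over the 6 Neg libraries, with 4559 of 14829 genes called either way. Most listed genes were at that level, so a list share somewhat above the background is not by itself a result. Of the 25446 genes, 6671 were higher and 6480 lower in every EpiLC library than in every ESC library. Lack of overlap between states was therefore common, and where given below it describes the values only. In bulk RNA, fewer cells that express a gene and less RNA per cell cannot be told apart.

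**Figure D1:**
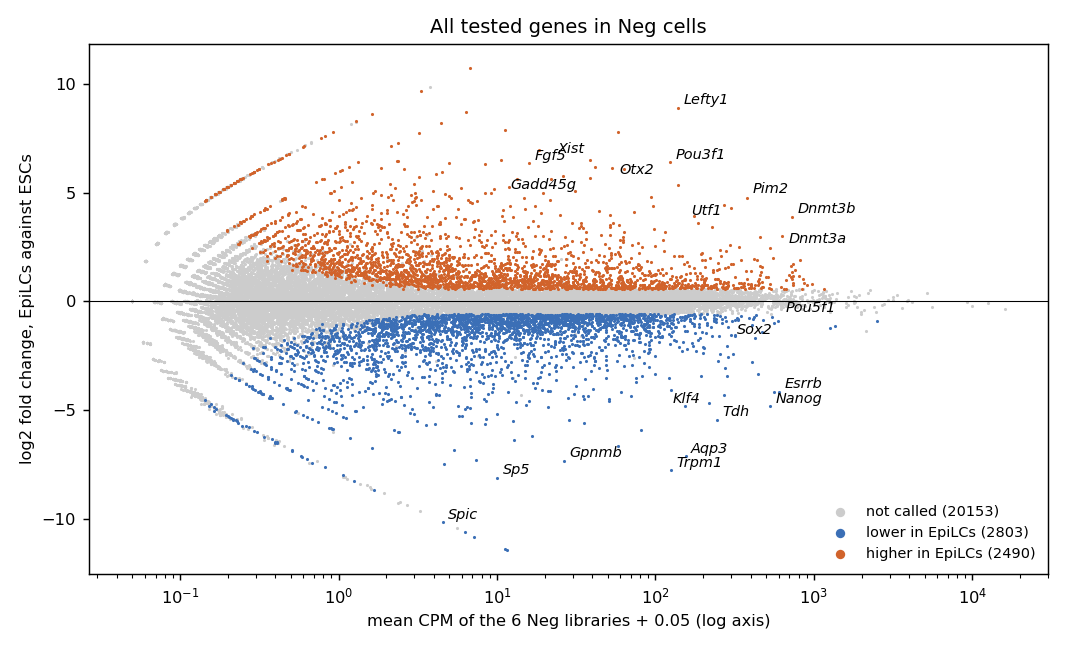
Mean level of each tested gene over the 6 Neg libraries (CPM plus 0.05, log axis) against its log2 fold change, EpiLCs over ESCs. The 2490 genes called higher and the 2803 called lower are coloured, the others are grey, and the cloud is centred near 0.

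Values are CPM after TMM scaling, in which counts are set relative to library size, listed in the order of replicates 1, 2 and 3. SE is the absolute log2 fold change divided by the square root of the F statistic of its test. This back-calculated SE can understate the error where a state has few counts, such as Lefty1 with 26 counts in ESCs. The libraries carried the markers of their titles. The 24 naive factors and markers summed to 8009 to 8270 CPM in ESCs and to 1668 to 1713 CPM in EpiLCs. The 23 formative and primed genes summed to 1154 to 1187 CPM in ESCs and to 3631 to 3986 CPM in EpiLCs. The 2 groups of libraries did not overlap on either sum.

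Naive genes fell together. Of 24 tested, 20 were called lower and 1 higher, with a median log2 fold change of -3.43. Nanog, a homeodomain factor of the core network, was at 1014, 1052 and 993 CPM in ESCs and at 33.9, 36.2 and 37.8 CPM in EpiLCs (log2 fold change -4.82, SE 0.0456, adjusted p = 4.06e-20). Esrrb, an orphan nuclear receptor and target of TCF7L1, was at 1138, 1177 and 1126 CPM in ESCs and at 64.3, 66.3 and 62.75 CPM in EpiLCs (log2 fold change -4.15, SE 0.0383, adjusted p = 4.06e-20). For Klf4, a zinc finger factor downstream of STAT3, the ESC libraries were at 414.5, 431 and 409.7 CPM and the EpiLC libraries at 14.3, 17.5 and 16.8 CPM (log2 fold change -4.69, SE 0.0553, adjusted p = 4.14e-19). All ESC libraries of these genes lay above all EpiLC libraries.

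Other called members included Tfcp2l1 (-4.155), Tbx3 (-4.285), Nr5a2 (-4.48) and Zfp42, also called Rex1 (-3.43). Prdm14, which recruits repressors to the de novo methyltransferase genes, was at 56.1, 55.7 and 54.1 CPM in ESCs and at 1.42, 1.07 and 1.26 CPM in EpiLCs (log2 fold change -5.45, SE 0.0948, adjusted p = 5.25e-17). Dppa3, which shields the genome from methylation, was at 13.3, 13.2 and 12.6 CPM in ESCs and at 0.616, 0.604 and 0.632 CPM in EpiLCs (log2 fold change -4.38, SE 0.175, adjusted p = 2.06e-12). Smaller declines were called for Klf5 (-1.59), Nr0b1 (-0.98) and Tet2 (-0.69). Gbx2, Manba and Dppa5a were not called, with log2 fold changes of 0.16, 0.22 and 0.06815.

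The core factors moved in several ways. Pou5f1, which encodes OCT4, was at 570.5, 577.5 and 571 CPM in ESCs and at 676, 612 and 663 CPM in EpiLCs (log2 fold change 0.18, SE 0.0376, adjusted p = 0.000683), so its change stayed under the fold limit. Sox2, its partner, was at 420.3, 409.7 and 399 CPM in ESCs and at 250.5, 240 and 237 CPM in EpiLCs (log2 fold change -0.76, SE 0.0374, adjusted p = 3.52e-11). Their groups did not overlap, and Sox2 alone of this pair was called. Of the 15 core genes, 10 were called higher and 2 lower (median 0.85). The largest increases were in the RNA-binding gene Lin28a (4.45) and in Utf1 (4.3), a chromatin factor of pluripotent cells. L1td1 (2) and Tdgf1 (1.55), the NODAL co-receptor, were also higher. Tfap2c fell by 3.345 on the log2 scale.

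Of 22 formative and primed genes tested, 19 were called higher and none lower (median 2.37). Otx2, a homeodomain factor that directs enhancer use in this state, was at 1.51, 1.31 and 1.63 CPM in ESCs and at 109.7, 97.5 and 106 CPM in EpiLCs (log2 fold change 6.12, SE 0.106, adjusted p = 4.74e-17). Pou3f1, which encodes OCT6, was at 3.37, 2.75 and 2.701 CPM in ESCs and at 271, 222 and 241 CPM in EpiLCs (log2 fold change 6.4, SE 0.0952, adjusted p = 6.27e-18). Fgf5, the classical marker of the early postimplantation epiblast, was at 0.532, 0.344 and 0.306 CPM in ESCs and at 33.01, 28.05 and 32.8 CPM in EpiLCs (log2 fold change 6.35, SE 0.213, adjusted p = 2.21e-13). For each of them every EpiLC library lay far above the highest ESC library.

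Sall2 (3.32), Sox11 (2.81), Sox4 (2.53), Zic2 (1.95) and Zic5 (2.21) were also higher. Pim2, a serine/threonine kinase, was at 25.8, 30.1 and 26.15 CPM in ESCs and at 777, 669 and 749 CPM in EpiLCs (log2 fold change 4.74, SE 0.0628, adjusted p = 1.53e-18). Etv5, Tead2 and Fst were not called, with log2 fold changes of -0.22, 0.43 and -0.35, and Cer1 had too few counts to be tested.

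**Figure D2:**
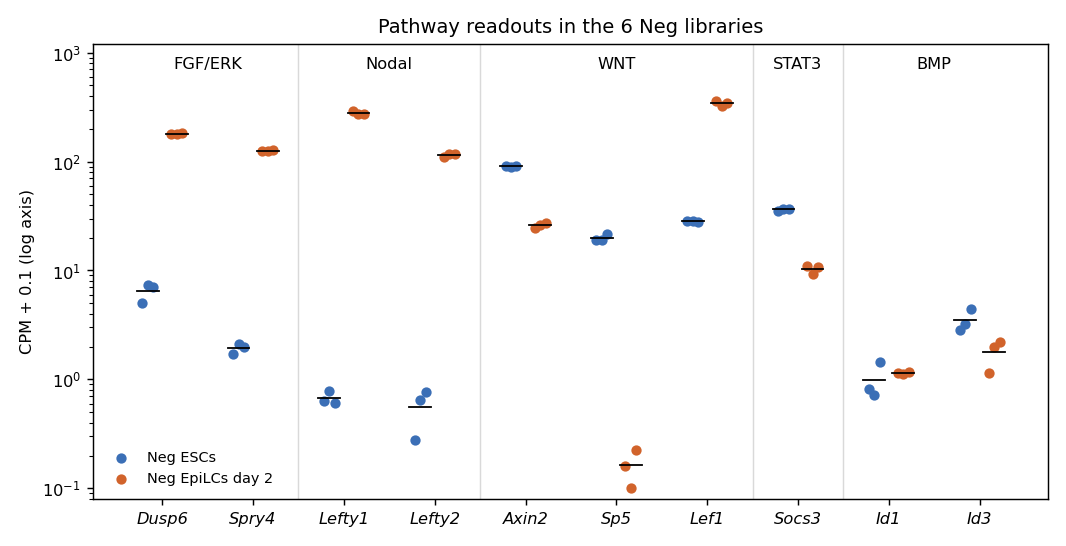
CPM plus 0.1 (log axis) of readout genes of the pathways the media act on, with a line at each mean and 1 point for each of the 3 ESC and 3 EpiLC libraries of the Neg line. Axin2, Sp5 and Socs3 are lower and Spry4, Dusp6, Lefty1 and Lefty2 higher in every EpiLC library than in every ESC library.

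The media differ in their action on 4 pathways, and the transcript readouts of each were described in turn. For WNT, GSK3 was inhibited in ESCs and tankyrase in EpiLCs. Of 16 target genes 7 were called lower and 4 higher, with a median of -0.65. Axin2, a negative feedback scaffold, was at 91.45, 88.6 and 90.1 CPM in ESCs and at 24.5, 25.97 and 27.1 CPM in EpiLCs (log2 fold change -1.8, SE 0.0652, adjusted p = 5.94e-13). Sp5, a zinc finger target, was at 19.05, 19.13 and 21.5 CPM in ESCs and at 0.0616, 0 and 0.126 CPM in EpiLCs, which rests on 915 counts in ESCs and 3 in EpiLCs. The ratio of ESCs to EpiLCs for Sp5 was 315, with a 95% counting interval of 108 to 1530. For Cdx1, a caudal homeobox target, the ESC libraries were at 11.6, 13.3 and 15.3 CPM and the EpiLC libraries at 0.185, 0.268 and 0.379 CPM (log2 fold change -5.57, SE 0.226, adjusted p = 2.61e-12). Notum, which encodes a WNT deacylase, was at 17.9, 18.3 and 21 CPM in ESCs and at 3.141, 1.61 and 1.77 CPM in EpiLCs (log2 fold change -3.12, SE 0.196, adjusted p = 7.62e-10). Each of these genes was lower in every EpiLC library, and Dkk1 (1.885), Nkd2 (0.86), Nkd1 (0.6) and Lgr5 were called higher. Lgr5, a receptor of R-spondins, had 3 counts in ESCs and 30 in EpiLCs.

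The TCF/LEF core letters CTTTGAT occurred, on either strand, in the 250 bases upstream of the start of 4 of the 16 WNT targets (25%) and of 622 of 21770 protein-coding genes (2.86%). They were in 2.24% of genes called higher and 2.28% of genes called lower. The 4 targets were Sp5, Notum and Cdx1, which were lower in EpiLCs, and Nkd1, which was higher. The windows of 3 of these genes, Cdx1 left out, are shown from the GRCm39 genome, 5′ to 3′ on the strand of the gene, because they carry the letters close to genes that moved in opposite directions. Capitals mark the motif. The Sp5 window is chr2:70305017-70305266 (plus strand), the Notum window chr11:120552020-120552269 (minus strand) and the Nkd1 window chr8:89247675-89247924 (plus strand).
Sp5: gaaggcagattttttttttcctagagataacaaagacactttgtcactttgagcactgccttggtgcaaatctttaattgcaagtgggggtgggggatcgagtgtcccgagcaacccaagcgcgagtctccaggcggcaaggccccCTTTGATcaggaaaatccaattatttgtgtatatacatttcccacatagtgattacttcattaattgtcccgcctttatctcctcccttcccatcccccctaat
Notum: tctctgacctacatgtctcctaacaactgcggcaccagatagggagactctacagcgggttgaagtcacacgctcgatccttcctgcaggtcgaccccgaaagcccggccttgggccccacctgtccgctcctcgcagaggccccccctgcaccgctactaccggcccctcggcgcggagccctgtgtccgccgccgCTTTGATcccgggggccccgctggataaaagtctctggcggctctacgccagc
Nkd1: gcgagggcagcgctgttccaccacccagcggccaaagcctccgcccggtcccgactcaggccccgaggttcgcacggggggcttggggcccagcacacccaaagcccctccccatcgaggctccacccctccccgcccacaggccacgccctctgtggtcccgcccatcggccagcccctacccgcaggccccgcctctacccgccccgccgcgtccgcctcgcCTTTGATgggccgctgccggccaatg
The motif began 104 bases before the start in Sp5, 53 in Notum and 26 in Nkd1. A match of letters is a description of the window and not a measured binding site.

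Among the TCF factors, Lef1, an activating member, was at 28.6, 28.55 and 27.9 CPM in ESCs and at 358, 324 and 345 CPM in EpiLCs (log2 fold change 3.59, SE 0.0499, adjusted p = 2.77e-18). Tcf7l1, the repressive member, was at 177, 176 and 169 CPM in ESCs and at 105, 96.5 and 100.2 CPM in EpiLCs (log2 fold change -0.79, SE 0.0412, adjusted p = 7.41e-11). The 2 genes thus moved in opposite directions with no overlap of groups. Of 8 WNT ligand genes, 2 were called higher and 1 lower. Of 18 receptors and regulators, 3 were called higher and 3 lower, led by Fzd7 (2.09) and Fzd10 (-2.69). Ctnnb1, which encodes β-catenin, was at 1013 ± 30.3 CPM in ESCs and 1072 ± 30.3 CPM in EpiLCs (SD, n = 3 each) and was not called (0.0816).

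For FGF and ERK, MEK was inhibited in ESCs and FGF2 was supplied in EpiLCs. Of 20 feedback and target genes, 13 were called higher and 1 lower, with a median of 1.23. Spry4, a feedback inhibitor of receptor signalling, was at 1.595, 1.995 and 1.89 CPM in ESCs and at 124, 125 and 127.5 CPM in EpiLCs (log2 fold change 6.08, SE 0.0767, adjusted p = 9.07e-19). Dusp6, an ERK phosphatase, was at 4.96, 7.29 and 6.88 CPM in ESCs and at 180.2, 179 and 182 CPM in EpiLCs (log2 fold change 4.79, SE 0.0792, adjusted p = 2.75e-17). Egr1, an immediate early factor, was at 2.04, 1.51 and 1.43 CPM in ESCs and at 43.35, 37.1 and 43.5 CPM in EpiLCs (log2 fold change 4.67, SE 0.116, adjusted p = 4.25e-15). The lowest EpiLC library was above the highest ESC library for all 3 genes.

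Myc, a growth factor target and transcription factor, rose by 3.61 on the log2 scale, and Spry2 by 1.6. Ier3 was called lower (-0.59), and Fos was not called (0.0857). Of 6 ligand genes tested, 3 were called higher and 1 lower. Fgf4, the autocrine ligand of ESCs, was at 79.2, 82.2 and 79.05 CPM in ESCs and at 247, 243 and 247 CPM in EpiLCs (log2 fold change 1.615, SE 0.0325, adjusted p = 3e-16). Fgf15 was at 0.177, 0.275 and 0.204 CPM in ESCs and at 23.3, 20.3 and 18.7 CPM in EpiLCs (log2 fold change 6.51, SE 0.21, adjusted p = 1.37e-13). The gene for FGF2, the supplied ligand, was at 0.347 ± 0.301 CPM in ESCs and 0.2305 ± 0.174 CPM in EpiLCs and was not called. Of 4 receptor genes 1 was called, Fgfr2 (2.49), while Fgfr1 was not (-0.16).

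For LIF and STAT3, the cytokine was present in ESC medium. None of the 21 genes in the 2 roles was called higher. Of 9 receptor and kinase genes 6 were called lower (median -0.95), and of 12 targets 5 were called lower. These targets were Socs3, Klf4, Tfcp2l1, Bcl3 and Sp5. Klf4 and Tfcp2l1 were also counted as naive genes and Sp5 as a WNT target. The other 7, Socs2, Pim1, Pim3, Gbx2, Junb, Ocln and Cish, were not called. Stat3 was at 134, 142 and 136.5 CPM in ESCs and at 36.5, 35.6 and 33.4 CPM in EpiLCs (log2 fold change -1.97, SE 0.0541, adjusted p = 1.62e-14). Il6st, which encodes the signalling receptor gp130, was at 97.3, 108 and 107 CPM in ESCs and at 37.9, 41.9 and 42.15 CPM in EpiLCs (log2 fold change -1.36, SE 0.0567, adjusted p = 3.69e-12). Socs3, the feedback inhibitor induced by STAT3, was at 35.2, 36.5 and 36.9 CPM in ESCs and at 11.02, 9.26 and 10.7 CPM in EpiLCs (log2 fold change -1.81, SE 0.0684, adjusted p = 1.05e-12). ESC and EpiLC libraries did not overlap for any of these. The STAT letters TTCCNGGAA were found in none of the 12 upstream windows of the targets, against 0.942% of all protein-coding genes, which says only that these letters are not in that window.

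For activin and NODAL, whose receptors activin A engages, 5 of 11 inhibitor and target genes were called higher and 1 lower (median 0.48). Lefty1, at chr1 from 180762587 to 180765971 (GRCm39) and an extracellular NODAL inhibitor, was at 0.532, 0.688 and 0.5097 CPM in ESCs and at 289.7, 272 and 274.5 CPM in EpiLCs (log2 fold change 8.91, SE 0.0796, adjusted p = 4.05e-20). Lefty2, its neighbour at 180720635 to 180726932, was at 0.177, 0.5504 and 0.663 CPM in ESCs and at 111.2, 116.5 and 117 CPM in EpiLCs (log2 fold change 7.81, SE 0.115, adjusted p = 6.19e-18). Both were close to 0 in every ESC library and abundant in every EpiLC library. Skil, a SMAD co-repressor, also rose (2.46). Nodal itself was at 86.5 ± 2.699 CPM in ESCs and 74.7 ± 3.58 CPM in EpiLCs and was not called (-0.21), and Pcsk6, a convertase that processes it, was lower (-2.08). Receptor and transducer genes were called higher in 3 of 11 cases and lower in 2.

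BMP readouts gave smaller counts, with 3 of 13 inhibitors and targets higher and 3 lower. Id1, a direct SMAD target, was at 0.709, 0.619 and 1.325 CPM in ESCs and at 1.05, 1.01 and 1.07 CPM in EpiLCs and was not called (0.19, adjusted p = 0.754). Id3 was at 2.75, 3.165 and 4.33 CPM in ESCs and at 1.05, 1.88 and 2.085 CPM in EpiLCs (log2 fold change -1.05, SE 0.268, adjusted p = 0.00386). Its call was lost without ESC replicate 3 (log2 fold change -0.831, adjusted p = 0.0342) and without EpiLC replicate 1 (-0.765, adjusted p = 0.0288). The Id3 call was also lost in edgeR with transcript length offsets (-1.26, adjusted p = 0.0146) and in a test against the fold limit itself (adjusted p = 0.0765). Id4 (-3.71), Msx2 (-2.93) and the ligand gene Bmp7 (-3.365) were lower, and of 7 receptor and transducer genes 2 were lower and none higher.

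**Figure D3:**
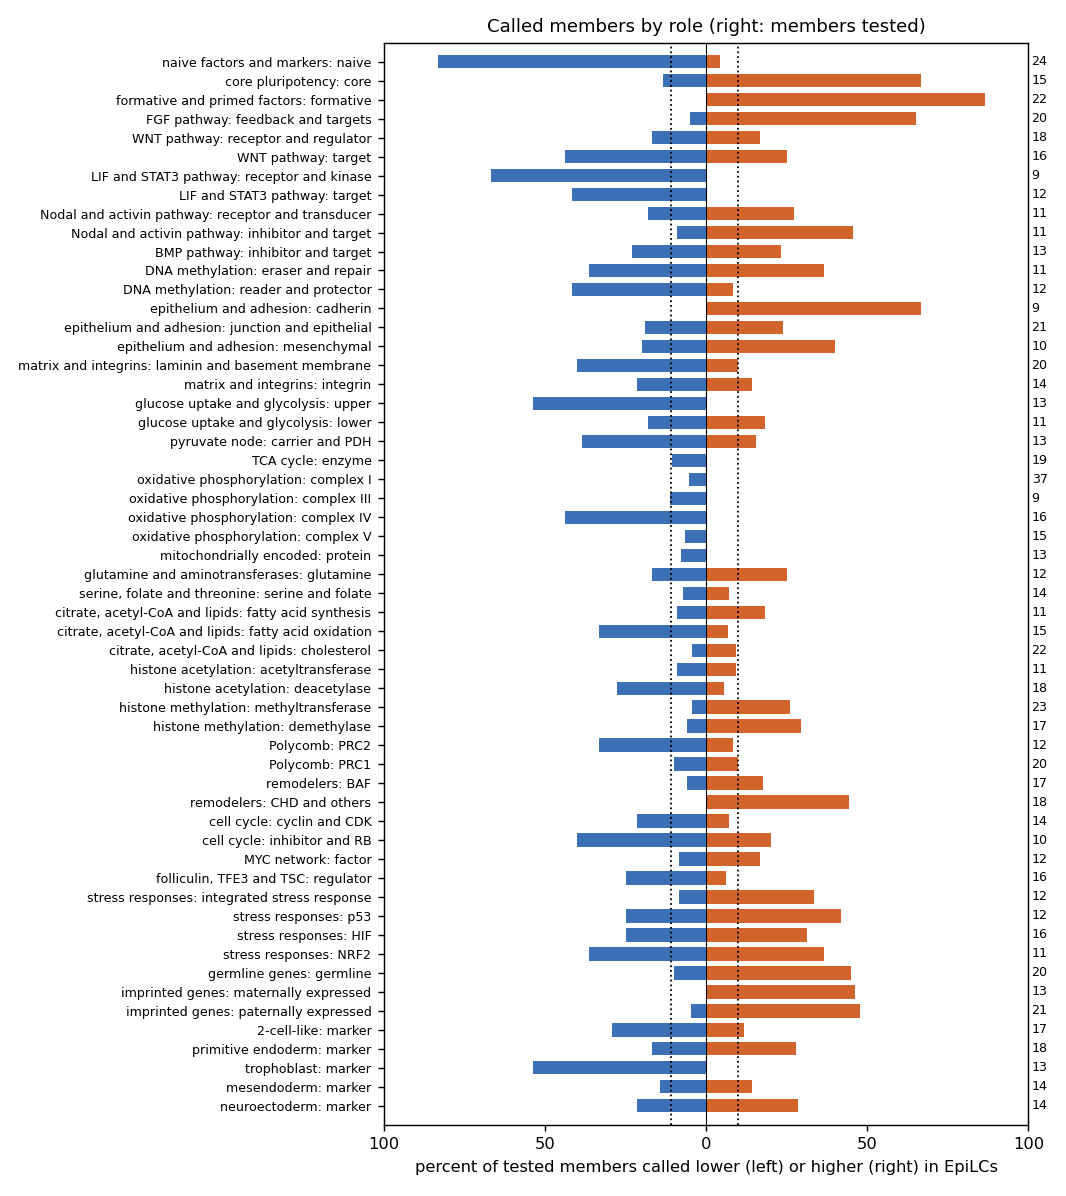
Percent of the tested members of a role called lower (bars to the left) or higher (bars to the right) in Neg EpiLCs against ESCs. Only roles with at least 9 tested members are drawn, with the number tested at the right edge. Dotted lines mark the shares over all tested genes of any level, 11% lower and 9.79% higher. The bars of naive, LIF receptor and upper glycolysis genes are among the longest to the left, and those of formative, core and ERK feedback genes among the longest to the right.

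Genes of the DNA methylation machinery were read by role. Of 5 writers 3 were called higher and none lower. Dnmt3a, a de novo methyltransferase, was at 138, 146 and 133 CPM in ESCs and at 1152, 1081 and 1110 CPM in EpiLCs (log2 fold change 3, SE 0.0402, adjusted p = 1.76e-18). For Dnmt3b, its paralog at chr2 from 153490861 to 153529650, the ESC libraries were at 91.6, 92.3 and 92.7 CPM and the EpiLC libraries at 1466, 1273 and 1363 CPM (log2 fold change 3.89, SE 0.0508, adjusted p = 1.3e-18). Dnmt3l, their catalytically inactive cofactor, was at 96.95, 105 and 107 CPM in ESCs and at 824, 794 and 820 CPM in EpiLCs (log2 fold change 2.97, SE 0.0387, adjusted p = 1.29e-18). Every EpiLC library was above every ESC library for these 3 genes. Maintenance genes were not called, with Dnmt1 at -0.0724 and Uhrf1 at -0.35 on the log2 scale.

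Erasers and repair genes were divided, with 4 of 11 higher and 4 lower. Tet1, a 5-methylcytosine oxidase, was at 420.1, 469.7 and 445 CPM in ESCs and at 856, 925 and 896 CPM in EpiLCs (log2 fold change 1, SE 0.0442, adjusted p = 7.39e-12), whereas Tet2 fell by 0.69 and Tet3 was not called (-0.12). Gadd45g, a stress-response gene linked to demethylation, was at 1.42, 1.51 and 1.48 CPM in ESCs and at 80.2, 68.6 and 78.6 CPM in EpiLCs (log2 fold change 5.68, SE 0.111, adjusted p = 2.31e-16). Gadd45a rose (1.87) and Gadd45b fell by 2.38. Of 12 readers and protectors 5 were lower and 1 higher, among the lower Zfp57 (-0.74), which guards imprints.

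Among histone modifiers, of 23 methyltransferase genes 6 were called higher and 1 lower, and of 17 demethylase genes 5 higher and 1 lower, with medians of 0.24 and 0.22. Jmjd1c (1.74), Kdm4c (1.25) and Kdm2b (1.03) led the demethylases. Of 18 deacetylases 5 were lower and 1 higher (median -0.35). Of 11 acetyltransferase genes 1 was higher and 1 lower. The latter, Kat6b, was at 639.5, 669.7 and 645.5 CPM in ESCs and at 203, 196 and 207 CPM in EpiLCs (log2 fold change -1.69, SE 0.034, adjusted p = 3.04e-16).

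Among Polycomb genes 1 of 12 in PRC2 was higher and 4 were lower, and 2 of 20 in PRC1 were higher and 2 lower. Jarid2, which recruits PRC2, was at 460.4, 465 and 449.5 CPM in ESCs and at 1008, 998 and 1048 CPM in EpiLCs (log2 fold change 1.15, SE 0.0315, adjusted p = 1.52e-14). Epop, which limits PRC2 activity at CpG islands, was at 281, 288 and 288 CPM in ESCs and at 111.5, 106 and 102 CPM in EpiLCs (log2 fold change -1.42, SE 0.0438, adjusted p = 7.01e-14). Thus 2 genes of PRC2 accessory proteins moved in opposite directions. The core subunits Suz12 (-0.84) and Eed (-0.8) were lower and Ezh2 was not called (0.17). Phc1, a PRC1 subunit, rose (1.91). Of 18 CHD and related remodelers, 8 were called higher and none lower (median 0.52), with Chd9 (2.5), Smarca1 (2.52) and Chd7 (1.43) first. In the BAF complex 3 of 17 were higher and 1 lower, where Arid1a rose (1.1) and Smarcd3 fell by 3.16.

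Among imprinted genes, of 13 maternally expressed genes 6 were higher and none lower (median 0.55), and of 21 paternally expressed genes 10 were higher and 1 lower (median 0.33). H19, a noncoding RNA, was at 3.72, 4.06 and 3.52 CPM in ESCs and at 29.6, 31.8 and 30.7 CPM in EpiLCs (log2 fold change 3.03, SE 0.097, adjusted p = 1.18e-13). Cdkn1c, a CDK inhibitor, was at 5.67, 6.055 and 4.995 CPM in ESCs and at 63.55, 57.3 and 64.4 CPM in EpiLCs (log2 fold change 3.48, SE 0.0875, adjusted p = 5.08e-15). Meg3 (2.01), Rian (1.91) and Mirg (2.16), noncoding RNAs of one domain on chromosome 12, rose together.

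Snrpn (2.31), Magel2 (4.38) and Nnat (3.34) led the paternally expressed genes. Plagl1, a zinc finger factor, was at 136, 138.5 and 147 CPM in ESCs and at 10.3, 11.5 and 10.8 CPM in EpiLCs (log2 fold change -3.7, SE 0.0514, adjusted p = 2.78e-18), and was the member called lower. Allele-specific reads were not analysed here, so these are total levels.

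Of 20 germline genes, 9 were called higher and 2 lower (median 0.38). Mael, which acts in transposon silencing, was at 12.2, 11.6 and 10.4 CPM in ESCs and at 42.2, 53.1 and 50.05 CPM in EpiLCs (log2 fold change 2.1, SE 0.0883, adjusted p = 4.09e-12). Tdrd1, a tudor protein of the piRNA pathway, was at 2.57, 2.55 and 2.85 CPM in ESCs and at 8.005, 8.32 and 9.1 CPM in EpiLCs (log2 fold change 1.66, SE 0.134, adjusted p = 1.93e-08). Ddx4, an RNA helicase of germ cells, rose as well (1.35). Dazl, an RNA-binding protein, was at 345.5, 361 and 352 CPM in ESCs and at 170.3, 171 and 184 CPM in EpiLCs (log2 fold change -1.01, SE 0.0441, adjusted p = 6.59e-12). It was therefore at its higher level in ESCs. The E-box letters CACGTG, which read the same on both strands, were in the upstream window of 10 of the 20 germline genes (50%), of 6.26% of all protein-coding genes, of 7.08% of genes called higher and of 8.44% of genes called lower. Of the 10, Sycp1, Mael, Tdrd1, Slc25a31 and Mov10l1 were called higher, Zp3 lower, and Sycp3, Hormad1, Stk31 and Brdt were not called. The Mael window (chr1:166066332-166066581, minus strand) and the Tdrd1 window (chr19:56814391-56814640, plus strand) are shown for the 2 members with the largest increases among the 10, with the letters in capitals.
Mael: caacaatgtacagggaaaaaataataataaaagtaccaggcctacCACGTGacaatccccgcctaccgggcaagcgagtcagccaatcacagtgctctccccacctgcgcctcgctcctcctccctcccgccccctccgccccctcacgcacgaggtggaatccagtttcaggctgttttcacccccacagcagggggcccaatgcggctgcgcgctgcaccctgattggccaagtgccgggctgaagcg
Tdrd1: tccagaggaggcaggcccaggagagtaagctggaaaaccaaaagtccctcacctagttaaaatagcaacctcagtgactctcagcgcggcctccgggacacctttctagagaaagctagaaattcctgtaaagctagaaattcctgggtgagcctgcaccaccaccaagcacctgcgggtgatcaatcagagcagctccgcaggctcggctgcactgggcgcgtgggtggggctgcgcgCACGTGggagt
The letters began 205 bases before the start of Mael and 11 bases before the start of Tdrd1.

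Of 9 cadherins and catenins, 6 were called higher and none lower (median 0.74). Cdh1, which encodes E-cadherin, was at 139, 149 and 147.5 CPM in ESCs and at 222.5, 216 and 223.5 CPM in EpiLCs (log2 fold change 0.6, SE 0.0351, adjusted p = 3.01e-10). Pcdh1, a protocadherin, was at 1.595, 1.86 and 1.89 CPM in ESCs and at 66.1, 57.6 and 57.6 CPM in EpiLCs (log2 fold change 5.06, SE 0.107, adjusted p = 5.35e-16). Cdh2, which encodes N-cadherin, was at 3.102, 3.23 and 4.485 CPM in ESCs and at 6.59, 5.905 and 5.88 CPM in EpiLCs (log2 fold change 0.74, SE 0.165, adjusted p = 0.00139). E-cadherin and N-cadherin transcripts were thus both higher, each without overlap. Of 21 junction and epithelial genes 5 were higher and 4 lower, and of 10 mesenchymal genes 4 were higher and 2 lower. Epcam rose (2.21), as did Esrp1, an epithelial splicing regulator (3.89), while Cldn4 (-2.85), Grhl3 (-2.945) and Esrp2 (-2.51) fell.

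Basement membrane genes were lower in 8 of 20 cases and higher in 2 (median -0.34). Fn1, the gene for fibronectin, was at 497, 541 and 510.3 CPM in ESCs and at 92.8, 100.6 and 98.02 CPM in EpiLCs (log2 fold change -2.41, SE 0.042, adjusted p = 5.39e-17). Nid1, a laminin linker, was at 80.8, 83.9 and 87.3 CPM in ESCs and at 12.1, 13.96 and 13.5 CPM in EpiLCs (log2 fold change -2.675, SE 0.0631, adjusted p = 2.25e-15). Lamb1 rose (2.37) while Lama1 (-2.01) fell. Of 14 integrin genes tested, 2 were higher and 3 lower, with Itga3 at 1.75 and Itgb3 at -1.98.

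Metabolic genes were read by step. For glucose uptake, 2 of 4 transporter genes were higher and 1 lower. Slc2a1, the transporter GLUT1, was at 545, 586 and 531 CPM in ESCs and at 1085, 1199 and 1161 CPM in EpiLCs (log2 fold change 1.05, SE 0.0454, adjusted p = 5.77e-12). Slc2a3, the transporter GLUT3, was at 1758, 1847 and 1714 CPM in ESCs and at 706, 792 and 769 CPM in EpiLCs (log2 fold change -1.23, SE 0.0421, adjusted p = 2.79e-13). The 2 transporter genes moved in opposite directions with no overlap. Of 13 upper glycolysis genes 7 were called lower and none higher (median -0.79). Hk1, a hexokinase, was at 89.7, 93.02 and 83.6 CPM in ESCs and at 25.8, 26.8 and 25.8 CPM in EpiLCs (log2 fold change -1.76, SE 0.0459, adjusted p = 7.8e-15). Pfkp, a phosphofructokinase subunit, fell by 1.59 and Hk2 by 0.8 on the log2 scale. In lower glycolysis 2 of 11 were higher and 2 lower, and the abundant members Gapdh (0.0317), Eno1 (0.21) and Ldha (-0.0117) were not called.

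At the entry of pyruvate into mitochondria, 5 of 13 carrier and pyruvate dehydrogenase genes were lower and 2 higher (median -0.25). Mpc1, a subunit of the mitochondrial pyruvate carrier, was at 11.5, 13.6 and 12.8 CPM in ESCs and at 6.34, 5.57 and 6.13 CPM in EpiLCs (log2 fold change -1.07, SE 0.0974, adjusted p = 8.49e-08). Pdk1, a kinase that inactivates pyruvate dehydrogenase, was at 87.5, 91.6 and 87.7 CPM in ESCs and at 189, 199.8 and 197 CPM in EpiLCs (log2 fold change 1.135, SE 0.0416, adjusted p = 6.94e-13). Pdp2, the opposing phosphatase, was at 98.9, 102 and 101.3 CPM in ESCs and at 23.95, 25.4 and 26.6 CPM in EpiLCs (log2 fold change -1.995, SE 0.0505, adjusted p = 5.46e-15). These 2 genes moved in opposite directions, while Pdk3 (-0.75) and Pdk4 (-0.98) were lower and Pdp1 higher (0.94).

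Of 8 pyruvate cycling genes, which include those repressed in the other line, 1 was called. Me1, cytosolic malic enzyme, was at 67.5, 70.1 and 69.8 CPM in ESCs and at 33.1, 35.7 and 35.5 CPM in EpiLCs (log2 fold change -0.99, SE 0.0578, adjusted p = 2.99e-10). Pcx, pyruvate carboxylase, was at 36.2, 36.7 and 35.7 CPM in ESCs and at 46.7, 49.4 and 56.9 CPM in EpiLCs and stayed under the fold limit (0.49, adjusted p = 7.32e-06). It was called higher without EpiLC replicate 1 (0.593, adjusted p = 1.28e-06). Me2, the mitochondrial malic enzyme, was at -0.51.

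In the TCA cycle 2 of 19 genes were called lower and none higher (median -0.15), namely Idh2 (-1.97) and Idh1 (-0.88). Complex IV of the respiratory chain had 7 of 16 lower (median -0.52), against 2 of 37 in complex I (median -0.15), 1 of 9 in complex III and 1 of 15 in complex V. Cox6b2, a testis-type subunit, was at 29.7, 28.7 and 29.8 CPM in ESCs and at 12.3, 11.2 and 11.6 CPM in EpiLCs (log2 fold change -1.33, SE 0.0662, adjusted p = 3.88e-11). Of the 13 mitochondrially encoded genes 1 was called, mt-Nd6 (-0.7). The mt-Nd6 call was lost in edgeR with the robust spread (adjusted p = 0.0125) and in a test against the fold limit itself (adjusted p = 0.271). It was also lost with a log2 limit of 1. The mitochondrial share of counts was 0.795% to 1.09% in ESCs and 0.764% to 0.935% in EpiLCs.

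Among amino acid genes, 3 of 6 threonine and glycine genes were lower and none higher (median -0.78). Tdh, threonine dehydrogenase, which feeds glycine and acetyl-CoA from threonine in mouse ESCs, was at 456, 484 and 487 CPM in ESCs and at 11.5, 9.797 and 11.6 CPM in EpiLCs (log2 fold change -5.43, SE 0.0582, adjusted p = 1.36e-19). Gcat, the next enzyme of that route, was at 60.9, 63.4 and 63.35 CPM in ESCs and at 21.2, 22.6 and 19.3 CPM in EpiLCs (log2 fold change -1.57, SE 0.0541, adjusted p = 2.97e-13). Asns, asparagine synthetase, was at 700.5, 719.9 and 729 CPM in ESCs and at 101.2, 104.5 and 102.5 CPM in EpiLCs (log2 fold change -2.8, SE 0.0333, adjusted p = 4.39e-19). Bcat1, the cytosolic branched-chain aminotransferase, was at 793, 829.6 and 814 CPM in ESCs and at 77.96, 80.9 and 79.7 CPM in EpiLCs (log2 fold change -3.35, SE 0.0349, adjusted p = 9.68e-20). Every ESC library was above every EpiLC library for the 4 genes. Of 12 glutamine genes 3 were higher and 2 lower, and of 14 serine and folate genes 1 was higher and 1 lower, with Phgdh (-0.0661) and Mthfd2 (0.25) not called.

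Citrate and acetyl-CoA genes were lower in 3 of 6 cases, with Acss1, mitochondrial acetyl-CoA synthetase, at -3.18 and the citrate carrier Slc25a1 at -0.89. Acly was not called (-0.36). Cpt1a, which commits fatty acids to oxidation, was at 159, 169 and 156.5 CPM in ESCs and at 19.21, 21.8 and 19.7 CPM in EpiLCs (log2 fold change -3, SE 0.0506, adjusted p = 3.73e-17). In fatty acid synthesis Acaca (0.74) and Acacb (1) were higher and Scd1 lower (-0.64). Of 22 cholesterol genes 2 were higher and 1 lower.

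Cell cycle genes were mostly not called, with 1 of 14 cyclin and CDK genes higher and 3 lower. Ccnd2 rose (2.87), and Cdk6 (-2) and Ccnd3 (-0.88) fell. Inhibitor and RB genes were lower in 4 of 10 cases and higher in 2, with Cdkn1a at -0.73. In the MYC network, Mxd4 (1.66) rose beside Myc, and Mycn was not called (0.5).

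Folliculin, TFE3 and TSC genes, which control exit from the naive state through TFE3, were lower in 4 of 16 cases and higher in 1. Tfe3 was at 71.6, 68.5 and 72.1 CPM in ESCs and at 247.5, 220.4 and 232 CPM in EpiLCs (log2 fold change 1.72, SE 0.0469, adjusted p = 1.47e-14). Its relatives Tfeb (-2.76) and Mitf (-2.925) were lower. Gpnmb, a glycoprotein gene known as a target of this factor family, was at 52.2, 49.2 and 55.45 CPM in ESCs and at 0.308, 0.201 and 0.442 CPM in EpiLCs (log2 fold change -7.32, SE 0.219, adjusted p = 4.83e-14). Thus the family gene that rose and the 2 that fell were each without overlap between states.

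Stress lists were mixed. Of 12 p53 targets and regulators 5 were higher, led by Pmaip1 (2.01) and Bbc3 (1.37), and 3 lower. Of 16 HIF genes 5 were higher, led by Adm (3.22) and Epas1 (1.865), and 4 lower, including Ndrg1 (-1.69) and Vegfa (-1.63). NRF2 genes were higher in 4 of 11 cases and lower in 4, with Keap1 at -1.52, and integrated stress response genes were higher in 4 of 12 and lower in 1.

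Markers of other cell types that such cultures can hold were summed for each library. Primitive endoderm markers summed to 231.1 to 259.7 CPM in ESCs and 132.5 to 139.3 CPM in EpiLCs, and 5 of 18 tested were higher and 3 lower. Trophoblast markers summed to 159.7 to 164.4 CPM in ESCs and 45.32 to 46.23 CPM in EpiLCs, with 7 of 13 lower, none higher and Tpbpa at 0. Their largest declines were in Gata2 (-4.11) and Tfap2c (-3.345). Mesendoderm markers summed to 65.57 to 68.77 CPM in ESCs and 99.72 to 105.5 CPM in EpiLCs, with 2 of 14 higher and 2 lower. Their most abundant member in EpiLCs, Dll1 (2.08), was higher, Nkx1-2 (-4.19) was lower, and T, the brachyury gene, was under 1 CPM in both states.

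Neuroectoderm markers summed to 148.4 to 157.7 CPM in ESCs and 151.3 to 155.2 CPM in EpiLCs. Of 14 tested, 4 were higher and 3 lower, and within them Sox1 rose (3.2) and Tubb3 fell (-1.59). Fibroblast markers, which would mark feeder cells, summed to 10.81 to 13.91 and to 7.078 to 8.925 CPM, with S100a4 at 0 and 8 of 11 under 1 CPM. Markers of the 2-cell-like state summed to 861.4 to 913.1 and to 735.5 to 807.7 CPM, with 2 of 17 higher and 5 lower. Several of these genes have near-identical copies, so reads may be split among them. The part of these cells in the changes above was not tested.

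Among abundant genes, those averaging 100 CPM or more, the 10 largest increases were in Lefty1, Pou3f1, Myrf, Pim2, Lin28a, Utf1, Car2, Dnmt3b, Lef1 and Gja1. Myrf, a membrane-bound transcription factor, was at 7.71, 6.81 and 5.86 CPM in ESCs and at 287, 259.8 and 269 CPM in EpiLCs (log2 fold change 5.35, SE 0.0689, adjusted p = 1.12e-18). Gja1, the gap junction protein connexin 43, was at 36.7, 39.4 and 40.4 CPM in ESCs and at 429, 402 and 425 CPM in EpiLCs (log2 fold change 3.43, SE 0.0482, adjusted p = 3.26e-18). The 10 largest decreases were in Trpm1, Aqp3, Tdh, Nanog, Jam2, Klf4, Tbx3, Tfcp2l1, Esrrb and Elf3. Trpm1, a cation channel gene at chr7 from 63803583 to 63922019, was at 258, 246.5 and 240.2 CPM in ESCs and at 0.985, 1.21 and 1.201 CPM in EpiLCs (log2 fold change -7.77, SE 0.0663, adjusted p = 3.93e-20). Aqp3, a water and glycerol channel, was at 300.5, 313 and 312 CPM in ESCs and at 2.03, 2.28 and 2.34 CPM in EpiLCs (log2 fold change -7.12, SE 0.0712, adjusted p = 7.92e-20). Both channel genes were abundant in every ESC library and close to 0 in every EpiLC library.

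Down to a mean of 1 CPM, several genes had no counts in one state, and folds are bounds against a floor of 3 counts over the group. Spic, an ETS-family factor, had 415 counts in the 3 ESC libraries and none in EpiLCs, so it was at least 143-fold lower in EpiLCs. Gbp2, a guanylate-binding protein gene, had none in ESCs and 305 in EpiLCs, at least 98.4-fold higher, and lies beside its paralog Gbp2b on chromosome 3, so reads may be shared. Amdhd1, of histidine breakdown, was at least 48.1-fold higher. Car4, a carbonic anhydrase gene, had 1 count in ESCs and 596 in EpiLCs, a ratio of 577 with a 95% counting interval of 103 to 22800. Rnu1a1 and Gm26444, U1 small nuclear RNA copies, and Cwc22rt5 and Cwc22rt7, near-identical copies on chromosome 2, had counts in each ESC library and none in EpiLCs, and their assignment is uncertain because reads fit several copies.

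Shares of a gene's transcripts were described from the deposited TPM in 6668 genes with at least 5 TPM in every Neg library. In 119 of them (1.78%), a transcript's mean share moved by over 25 percentage points with no overlap between states. This count rose to 209 without ESC replicate 2, 208 without ESC replicate 3, 204 without EpiLC replicate 1 and 185 without EpiLC replicate 3. With a library left out, the condition of no overlap is easier to meet, so the rise was not read as a result. No test was made on shares, which rest on the authors' assignment of single-end reads to similar transcripts.

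Etv5, an ETS factor downstream of FGF, gave one case of a change between start sites. Etv5-203 held 63.5%, 66.4% and 71.8% of the gene's TPM in ESCs and 0.67%, 0.341% and 0% in EpiLCs. Etv5-201 held 16.4%, 13.1% and 11.9% in ESCs and 88.3%, 86.6% and 84.1% in EpiLCs. The gene as a whole was at 631, 644.5 and 621 CPM in ESCs and at 557, 517 and 549 CPM in EpiLCs and was not called. Thus a gene with a nearly level total changed the transcript that carried it in all 3 libraries of each state. The start sites of the 2 transcripts lie 2985 bases apart on the minus strand of chromosome 16. The 250 bases upstream of the start of Etv5-201, the transcript that gained share, are shown from chr16:22258484-22258733 (GRCm39, minus strand, no letters marked).
Etv5-201: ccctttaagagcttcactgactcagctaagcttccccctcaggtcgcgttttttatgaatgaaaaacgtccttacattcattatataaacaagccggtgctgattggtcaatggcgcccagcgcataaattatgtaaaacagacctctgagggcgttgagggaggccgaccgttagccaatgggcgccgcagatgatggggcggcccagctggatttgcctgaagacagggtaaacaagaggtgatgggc
This window held 12 CpG dinucleotides and 51.2% G and C.

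Coil, the gene for the Cajal body protein coilin, changed from Coil-202, with 84.8%, 98.4% and 81.9% in ESCs and 10.5%, 7.35% and 6.9% in EpiLCs, to Coil-201. Snrnp25, a minor spliceosome gene, changed from Snrnp25-201 (95.7%, 79.6% and 95.5%, then 0% in each EpiLC library) to Snrnp25-206, which shares its start. For Ip6k1-205 the shares were 0%, 0% and 64.3% in ESCs and 88.6%, 85.1% and 80% in EpiLCs, so 1 ESC library lay near the EpiLC values, and on shares of estimated counts 2 of its other transcripts reversed direction. Pttg1, Pglyrp1, Accsl, Bscl2, Apbb3 and 1110059E24Rik completed the 10 genes with the largest moves. Several of these genes also spread widely among ESC libraries.

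Of the methyltransferase genes, Dnmt3b-208 held 47.9%, 29.6% and 43.3% in ESCs and 18.5%, 17.8% and 19.7% in EpiLCs, and Dnmt3b-202, from the same start, moved from 0%, 12.1% and 0% to 27.8%, 27.5% and 26.5%. Dnmt3a-203 fell from a mean share of 13.2% to 0% and Dnmt3a-209 rose from 5% to 16.3%, each without overlap. Dnmt3a-204, its most abundant transcript, held 37.6% and 46.4% with overlapping libraries. Pkm-201, a pyruvate kinase transcript, went from 80.1% to 73.7% and Ctnnd1-202 from 22.6% to 32.8%. For Dnmt1, Tcf7l1, Fgfr1 and Mbd2 the listed transcripts overlapped between states.

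**Figure D4:**
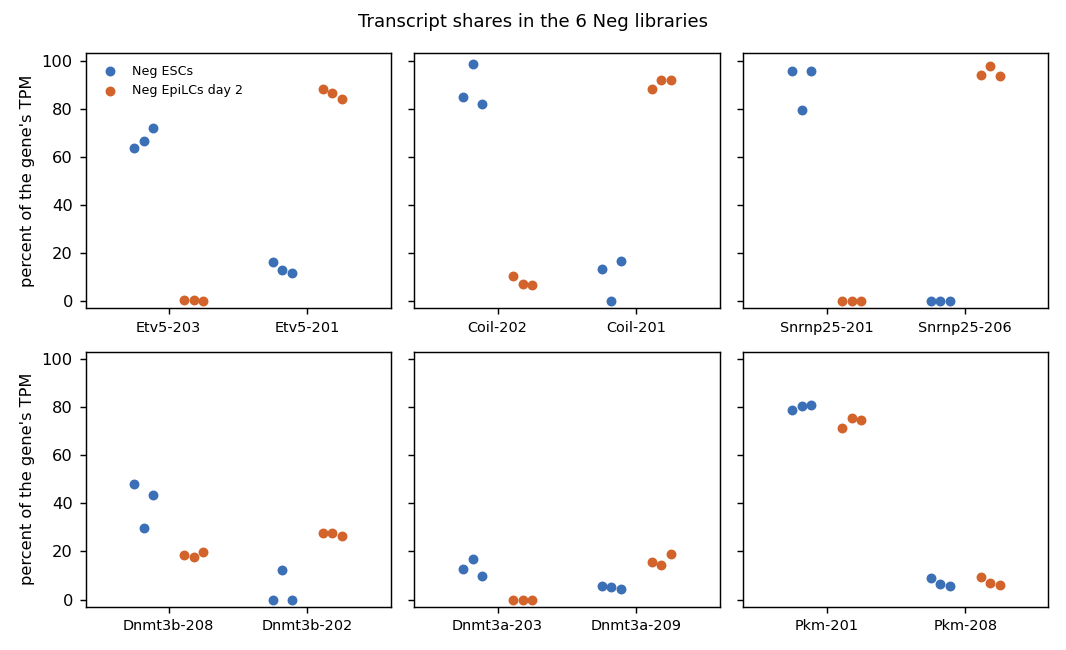
Share of a gene's TPM held by named transcripts, in percent, with 1 point per Neg library and the states side by side. Etv5-203 is at 63.5% to 71.8% in ESCs and at 0.67% or less in EpiLCs, and Etv5-201 takes 84.1% to 88.3% in EpiLCs.

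Whether the same transition differed in the 3xKD line was tested gene by gene as the log2 fold change in 3xKD minus that in Neg, with an adjusted p under 0.01. Over all genes 2553 differed (10%), and 727 did when the average transcript length entered the fit. The repressed genes were at lower means in 3xKD than in Neg cells in both states. Pcx was at a mean of 36.2 CPM in Neg ESCs, 16.4 in 3xKD ESCs, 51 in Neg EpiLCs and 24.6 in 3xKD EpiLCs, and its transition did not pass the test of a difference (difference 0.0879, adjusted p = 0.636). Me1 was at 69.2, 37.3, 34.8 and 16.8 CPM in the same order (difference -0.16, adjusted p = 0.268), and Me2 at 101, 52.2, 70.9 and 36 CPM (difference -0.0264, adjusted p = 0.866). Of the 24 naive genes 21 differed, of the 22 formative genes 10, of the 20 ERK feedback and target genes 9, of the 22 cholesterol genes 13 and of the 12 p53 genes 10.

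Klf4 fell by 4.69 in Neg and by 3.3 in 3xKD cells (difference 1.4, adjusted p = 2.57e-09), and Esrrb by 4.15 and 2.92 (difference 1.24, adjusted p = 1.69e-10). Zfp42 was at 528, 518 and 501 CPM in Neg ESCs and 226, 212 and 206 in 3xKD ESCs, against 48.2, 47.4 and 48.2 in Neg EpiLCs and 47.2, 48.1 and 53.7 in 3xKD EpiLCs. So for Zfp42 the lines stood apart as ESCs and close together as EpiLCs, and its difference of 1.32 was called. Nanog, given above for Neg cells, was at 1110, 1100 and 1120 CPM in 3xKD ESCs and at 72.9, 75.9 and 77.9 in 3xKD EpiLCs (difference 0.95, adjusted p = 1.01e-08). Fgf4 rose by 1.615 in Neg and was at -0.0704 in 3xKD cells (difference -1.69, adjusted p = 2.63e-12).

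Pou3f1 rose by 6.4 in Neg and 4.23 in 3xKD cells (difference -2.17, adjusted p = 1.63e-07), and Dnmt3b by 3.89 and 2.96 (difference -0.93, adjusted p = 5.91e-08). Otx2 (difference 0.22, adjusted p = 0.705), Fgf5 (difference -0.55, adjusted p = 0.571), Lefty2 (difference -0.0495, adjusted p = 0.968) and Dnmt3l (difference -0.0901, adjusted p = 0.304) did not pass this test, which does not show that their changes were alike. Dusp6 rose by 4.79 and 6.35 (difference 1.56, adjusted p = 9.67e-07), a call lost with transcript length offsets (adjusted p = 0.0415), and Axin2 fell by 1.8 and 0.65 (difference 1.15, adjusted p = 2.58e-07). Axin2 means were 90.1 CPM in Neg and 46.9 in 3xKD ESCs, against 25.9 and 29.9 in EpiLCs. Among genes called in both tests, Gadd45g had one of the largest differences. With the Neg values as given above, it was at 9.09, 9.63 and 9.67 in 3xKD ESCs and 14.9, 14.5 and 17.8 in 3xKD EpiLCs (difference -4.94, adjusted p = 9.2e-12). Trh, the thyrotropin-releasing hormone gene, went from 8.68, 10.2 and 9.17 to 6.28, 5.17 and 4.23 CPM in Neg cells and from 1.54, 1.58 and 1.44 to 13.5, 12.1 and 12.8 CPM in 3xKD cells (difference 3.91, adjusted p = 1.77e-09), so its direction was opposite in the 2 lines.

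**Figure D5:**
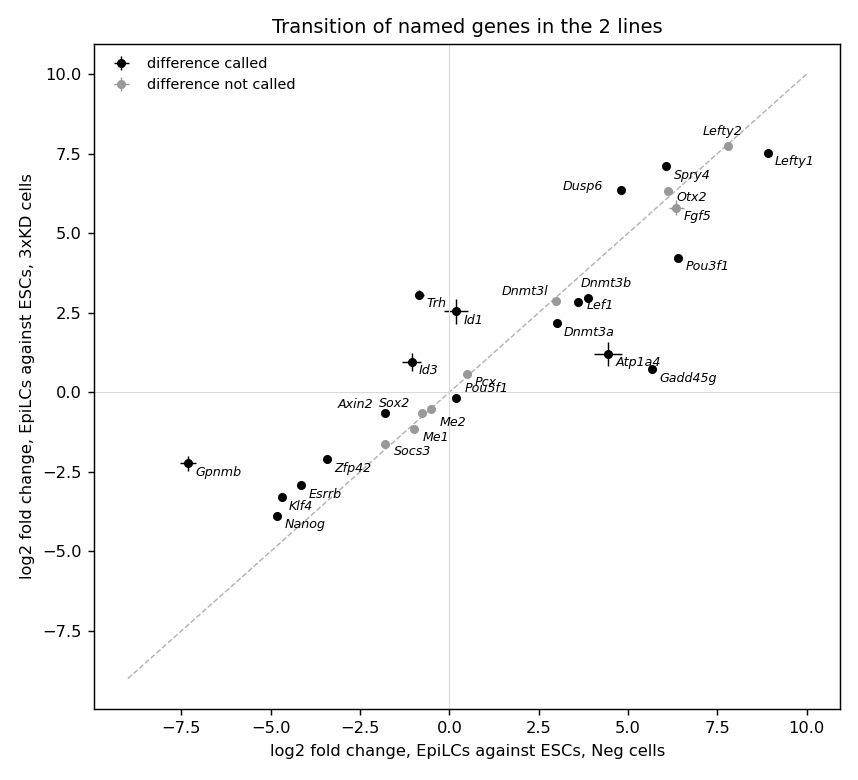
Log2 fold change, EpiLCs over ESCs, of named genes in Neg cells (horizontal) against 3xKD cells (vertical), with bars of 1 SE and a dashed line of equal change. The SE was back-calculated from the F statistic and can understate the error where a state has few counts. Black points passed the test of a difference between lines, as Gadd45g did far below the line, and grey points did not.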

How the data were processed

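Total RNA of 3 Neg ESC and 3 Neg EpiLC libraries was sequenced as single-end reads from a directional kit. The study's methods describe depletion of ribosomal RNA, while the labels' molecule field names polyA RNA. The authors quantified reads with nf-core/rnaseq against GRCm39 and deposited, per transcript and library, estimated counts and TPM. The labels' processing notes name bcl2fastq, Trim Galore 0.6.7, STAR 2.7.9a and Salmon 1.10.1, and the study's own gene tests used tximport and DESeq2.

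Here estimated counts of 149132 transcripts were summed per gene, rounded to whole numbers and kept at 10 or more over 12 libraries. Gene symbols came from the deposited transcript-to-gene map. Biotypes and positions came from GENCODE vM39, which held 56620 genes of the files (99%). One quasi-likelihood model with 4 groups was fitted in edgeR 4.0.16 (R 4.3.3, limma 3.58.1) with TMM factors, and p-values were adjusted by the Benjamini-Hochberg method over all genes. A transition was called where the adjusted p was under 0.01 and the log2 fold change beyond 0.58 in size, and a difference between lines at an adjusted p under 0.01. CPM are scaled with the TMM factors. A log2 fold change in parentheses after a gene is EpiLCs over ESCs in Neg cells. Each SE was back-calculated from the log2 fold change and the F statistic and is not a separately fitted error. Scripts were tested on simulated data. Count intervals (95%) and the floor of 3 counts cover counting error only. Replicates of each group were not copies of one library (chi-square of their counts over its degrees of freedom, 5.27 to 11.6).

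Genes were named by rule: the 10 largest called changes each way without overlap at a mean of at least 1 CPM and at 100 CPM, the 3 largest called per role, readouts and markers of each state, the 5 largest differences each way between lines, and transcript shares of 9 set genes and the 10 largest share changes. Other list members were named as examples after their values were seen. The gene lists and members were chosen with earlier results of these data known. Some genes, such as Klf4, Sp5 and Fgf4, are in several lists, so the counts of different lists are not independent. Alternatives were DESeq2 1.42.0, other normalizations, filters, thresholds, length offsets, a replicate block and omission of each library. Some items are not reported here.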

Additional observations from a re-analysis of the deposited data

Results flagged for a closer look

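Each result here is a transition whose size differed between the 2 lines by the interaction test in edgeR (adjusted p given, 3 libraries in each of 4 groups). Of the 5293 genes called in Neg cells, 1288 also passed that test, where 2553 of all 25446 genes passed it (10%). Both tests use the same Neg libraries, so they are not independent. Of 25 readout and state genes, 16 differed. Values are log2 fold changes, EpiLCs over ESCs, in Neg and then 3xKD cells, with the difference as 3xKD minus Neg. A difference can come from the levels in ESCs, in EpiLCs or in both, and the test does not separate these.

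Among naive and core genes, Nanog changed by -4.82 and -3.88 (difference 0.95, adjusted p = 1.01e-08). Zfp42 changed by -3.43 and -2.11 (difference 1.32, adjusted p = 1.49e-09). Klf4 changed by -4.69 and -3.3 (difference 1.4, adjusted p = 2.57e-09). Esrrb changed by -4.15 and -2.92 (difference 1.24, adjusted p = 1.69e-10). These 4 declines were smaller in 3xKD cells. Pou5f1, under the fold limit in Neg cells, changed by 0.18 and -0.17 (difference -0.35, adjusted p = 0.000195).

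Among formative and methylation genes, Pou3f1 rose by 6.4 and 4.23 (difference -2.17, adjusted p = 1.63e-07). Its means were 2.94 CPM in Neg and 3.67 in 3xKD ESCs, against 245 and 69 in EpiLCs. For Dnmt3a the values were 3 and 2.18 (difference -0.82, adjusted p = 2.28e-08). For Dnmt3b they were 3.89 and 2.96 (difference -0.93, adjusted p = 5.91e-08). All 3 increases were smaller in 3xKD cells.

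Among pathway readouts, Axin2 changed by -1.8 and -0.65 (difference 1.15, adjusted p = 2.58e-07). For Sp5, with 3 counts in Neg EpiLCs and a ratio of Neg ESCs to EpiLCs of 315 (95% counting interval 108 to 1530), the fitted difference was 3.59 (adjusted p = 0.00176), lost without 3xKD EpiLC replicate 1 (adjusted p = 0.0236). Sp5 means were 19.9 CPM in Neg and 3.56 in 3xKD ESCs, against 0.0627 and 0.146 in EpiLCs. Lef1 rose by 3.59 and 2.85 (difference -0.74, adjusted p = 2.27e-06), a call lost with transcript length offsets (adjusted p = 0.162). Dusp6 rose by 4.79 and 6.35 (difference 1.56, adjusted p = 9.67e-07), lost with the same offsets (adjusted p = 0.0415). For Spry4 the values were 6.08 and 7.11 (difference 1.03, adjusted p = 0.00853), and this call was lost under 11 other settings. Lefty1 rose by 8.91 and 7.53 (difference -1.38, adjusted p = 0.00132), lost without Neg ESC replicate 3 (adjusted p = 0.0156). For Id1 the values were 0.19 and 2.55 (difference 2.36, adjusted p = 0.00486), a call lost under 9 other settings. For Id3 they were -1.05 and 0.96 (difference 2.01, adjusted p = 0.00151), lost with transcript length offsets (adjusted p = 0.01). With a log2 limit of 1, the differences of Nanog, Dnmt3a, Dnmt3b, Lef1 and Pou5f1 were no longer called.

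Among genes with the largest differences, Gadd45g changed by 5.68 and 0.73 (difference -4.94, adjusted p = 9.2e-12). Trh changed by -0.84 and 3.07 (difference 3.91, adjusted p = 1.77e-09). Gpnmb changed by -7.32 and -2.24 (difference 5.08, adjusted p = 4.47e-07). Its means were 52.3 CPM in Neg and 4.27 in 3xKD ESCs, against 0.317 and 0.896 in EpiLCs. Mean levels of Gbp2b were 0.0295 CPM in Neg and 5.03 in 3xKD ESCs, against 4.61 and 8.54 in EpiLCs. For Gbp2b, with 1 count in Neg ESCs and a ratio of EpiLCs to ESCs of 210 (95% counting interval 37.3 to 8330), the fitted difference was -6.5 (adjusted p = 6.51e-08). For Gbp2, with no counts in Neg ESCs and at least 98.4-fold higher in Neg EpiLCs, it was -6.86 (adjusted p = 5.79e-06). For Clca1, with 1 count in Neg ESCs and a ratio of 99.7 (95% counting interval 17.5 to 3970), it was -3.52 (adjusted p = 0.00594), lost under 9 other settings. Atp1a4 had 4.45 and 1.21 (difference -3.24, adjusted p = 0.00105). The copies Cwc22rt7, Rnu1a1 and Gm26444 had no counts in Neg EpiLCs and were at least 198-fold, 319-fold and 313-fold lower there than in Neg ESCs. Their fitted differences were 21.28 (adjusted p = 1.19e-06), 10.65 (adjusted p = 0.000345) and 10.54 (adjusted p = 0.000282), and the last 2 calls were lost with the robust spread (adjusted p = 0.0273 and 0.0247). These fitted differences depend on the prior count, and reads may be shared among copies.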

How the results depend on the processing

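The 5293 calls became 4833 with DESeq2, 5312 with RLE factors, 5355 with upper-quartile factors and 5053 with the 6 Neg libraries alone. The number depended on the threshold, with 11231 calls (5585 higher, 5646 lower) and 4127 differences between lines at an adjusted p under 0.05 with no fold limit. A log2 limit of 1 left 3436 calls (1759 lower) and 563 differences. A test against the fold limit itself left 3420 (1591 higher, 1829 lower). Offsets for transcript length left 4246 calls and 727 differences, and the cause was not tested. Leaving out each library in turn gave 4889 to 5263 calls, 2229 to 2652 higher, 2463 to 2798 lower and 2084 to 2574 differences. A minimum of 1 TPM gave 302 genes with share changes, and leaving out a Neg library, where no overlap is easier to meet, 163 to 209. On shares of estimated counts the changes of Apbb3-201 (0.499 percentage points), Ip6k1-201 (0.677) and Ip6k1-210 (0.0649) reversed. With length offsets the difference for Zeb2 between lines reversed (1.06, adjusted p = 0.646 in edgeR). Over named genes and their alternatives, 5466 transition values kept direction and call, 153 lost the call and 5 gained it, and of the differences 4849 kept them, 227 lost the call, 91 gained it and 1 reversed.

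With the replicate number as a block, 5169 genes were called and 2322 differed between lines. The deviations of same-numbered ESC and EpiLC libraries correlated at 0.00855, 0.0367 and -0.0426, and not every library correlated best with its own number, so the numbers were not taken as a pairing. Low counts limit genes with 3 counts or fewer in a state, whose fitted values depend on the prior count.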

Other observations

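The genes here were chosen after their values were seen. Xist, the noncoding RNA that silences an X chromosome in female cells, was at 0.798, 0.5504 and 1.07 CPM in ESCs and at 73.5, 77.9 and 78.8 CPM in EpiLCs (log2 fold change 6.51, SE 0.127, adjusted p = 2.22e-16). It lies on chromosome X from 102503972 to 102537573 on the minus strand (GRCm39). Tsix, its antisense partner from 102475123 to 102533557, was at 14.4, 14.45 and 15.2 CPM in ESCs and at 6.77, 5.301 and 7.77 CPM in EpiLCs (log2 fold change -1.15, SE 0.129, adjusted p = 1.13e-06). The library kit kept strand, but how overlapping reads were assigned was not examined. Jpx (2.81, adjusted p = 1.4e-05) and Ftx (0.92, adjusted p = 0.000402), noncoding genes of the same region, and Rlim (0.67, adjusted p = 3.87e-11), which encodes a ubiquitin ligase acting on this locus, were called higher. The line is male. On chromosome X, 566 tested genes had a mean of at least 1 CPM over the Neg libraries. Their median log2 fold change was 0, with 101 called higher (17.8%) and 102 lower (18%). Over all tested genes at that level, 4559 of 14829 were called either way. On other chromosomes the share called higher reached 17% (chromosome 14) and the share called lower 19.9% (chromosome 11).

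In 3xKD cells Xist rose by 5.42 (difference -1.09, adjusted p = 0.012, not called in edgeR), and Tsix was at 0.0801 (difference 1.23, adjusted p = 0.000153, called).

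Wnt7b, a WNT ligand gene, was at 2513, 2553 and 3584 CPM in ESCs and at 2931, 3354 and 1603 CPM in EpiLCs (log2 fold change -0.13, SE 0.281, adjusted p = 0.755). Single libraries stood apart in both states, namely ESC replicate 3 and EpiLC replicate 3, and in 3xKD EpiLCs the values were 1290, 3230 and 3360 CPM. The states overlapped.

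Long noncoding RNA genes were called higher in 235 of 3796 cases (6.19%) and lower in 217 (5.72%), below the shares over all genes of 9.79% and 11%. These shares cover genes of every level, and calls were more frequent at a mean of at least 1 CPM. Long noncoding RNA genes were not matched to other genes by level. Whether long noncoding RNA genes changed less than other genes of the same level was not tested.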
